A study of Homo sapiens with 8 samples.

Results

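ABC transporter genes were followed in KG1a, a CD34-positive line established from human acute myeloid leukemia, after treatment with a SUMOylation inhibitor, a BCL2 inhibitor or both. The members were every gene of the count table whose symbol is ABC followed by a letter from A to G and a number, which gave 45 of 25168 genes. Cells were cultured for 48 h with vehicle (DMSO), TAK-981 at 5 µM, venetoclax at 1 µM, or both drugs at these doses. The target of TAK-981 is the SUMO-activating enzyme, which starts the coupling of the SUMO modifier to its substrates, and that of venetoclax (VEN in the labels) is the antiapoptotic protein BCL2. There were 2 libraries a group and 8 in all. The labels do not say whether a group's libraries were grown as separate cultures, and the spread behind the p-values may therefore be technical. All groups share the culture medium and none carries a genetic change made for the study, as far as the labels say.

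ABC proteins bind and hydrolyse ATP. Most use it to move substrates across membranes: the ABCB1, ABCC and ABCG2 pumps export drugs and organic anions, ABCA1 and ABCG1 hand cholesterol and phospholipid to lipoproteins, several ABCB proteins sit in mitochondria, and ABCD proteins serve peroxisomes and lysosomes. The ABCE and ABCF subfamilies have no membrane part and act on ribosomes. ABCB1, also called P-glycoprotein, is the pump best known for drug resistance in leukemia, and KG1a is often used as a line that makes it.

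Total counts ran from 13204588 to 26304900 per library. The libraries of a group lay close together except with venetoclax: over 9858 genes of at least 5 CPM (counts scaled to library size, with TMM factors), the median absolute log2 difference between the 2 libraries was 0.263 with venetoclax and 0.0883 to 0.101 in the other groups. Over the 20 ABC genes at that level it was 0.212 against 0.0568 to 0.0706. The labelled line was checked against its markers: CD34 ran from 952.7 to 1519.5 CPM, every B cell, monocyte, erythroid, epithelial and fibroblast marker listed was at 1.46 CPM or less in every library (CD79A was the highest, and HBB, HBG1, EPCAM, KRT18, COL1A2 and DCN had no counts), and of the T cell genes, CD3D and CD3E were present at 5.62 to 38.7 CPM while CD3G was at 0.172 CPM or less. In bulk RNA, fewer cells of a type and less RNA per cell cannot be told apart. The strand setting of the counting is not given in the sources used here, and in GENCODE 29 more than 10% of the exonic bases of 4 tested ABC genes lie in another gene: 54.7% for ABCB6 and 45.8% for ABCF2 with a gene on the same strand, and 24.5% for ABCB9 and 11.9% for ABCE1 with genes on the other strand. Values of these 4 genes are therefore uncertain, by an amount that these shares of bases do not give.

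Of the 45 genes, 32 had enough counts to be tested. The 13 others were ABCA4, ABCA8, ABCA13, ABCB5, ABCC3, ABCC6, ABCC8, ABCC9, ABCC12, ABCG2, ABCG4, ABCG5 and ABCG8, and none had more than 21 counts over all 8 libraries. ABCC8, ABCC12, ABCG5 and ABCG8 had 0 counts, which over a summed total of 162566916 counts allows up to 0.0185 CPM (3 counts, counting error only). ABCG2, a drug pump of stem and progenitor cells, held those 21 counts, as 9 in vehicle, 3 with TAK-981, 7 with venetoclax and 2 with both drugs. No comparison was made at that depth.

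Per kilobase of gene length, the most abundant ABC mRNA in vehicle was ABCD3, a peroxisomal fatty acid carrier, at 40.9 ± 0.484 CPM per kb (SD, n = 2). ABCB1 followed at 34.5 ± 0.901, ABCF1 at 29.4 ± 0.825, ABCE1 at 26.7 ± 0.682 and ABCC1 at 24.1 ± 1.73 on the same scale, and ABCB10 was at 20.6 ± 0.164. In this order of the genes reported here, each differed from the next by more than the SD of either. ABCA2 was at 16.5 ± 3.10, ABCF2 at 15.2 ± 0.123 and ABCG1 at 13.9 ± 0.320, and the SD of ABCA2 covers both. With both drugs ABCF1 stood at 41.5 ± 0.794 and ABCD3 at 40.4 ± 0.437, while ABCB1 was at 22.8 ± 0.606.

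**Figure D1:**
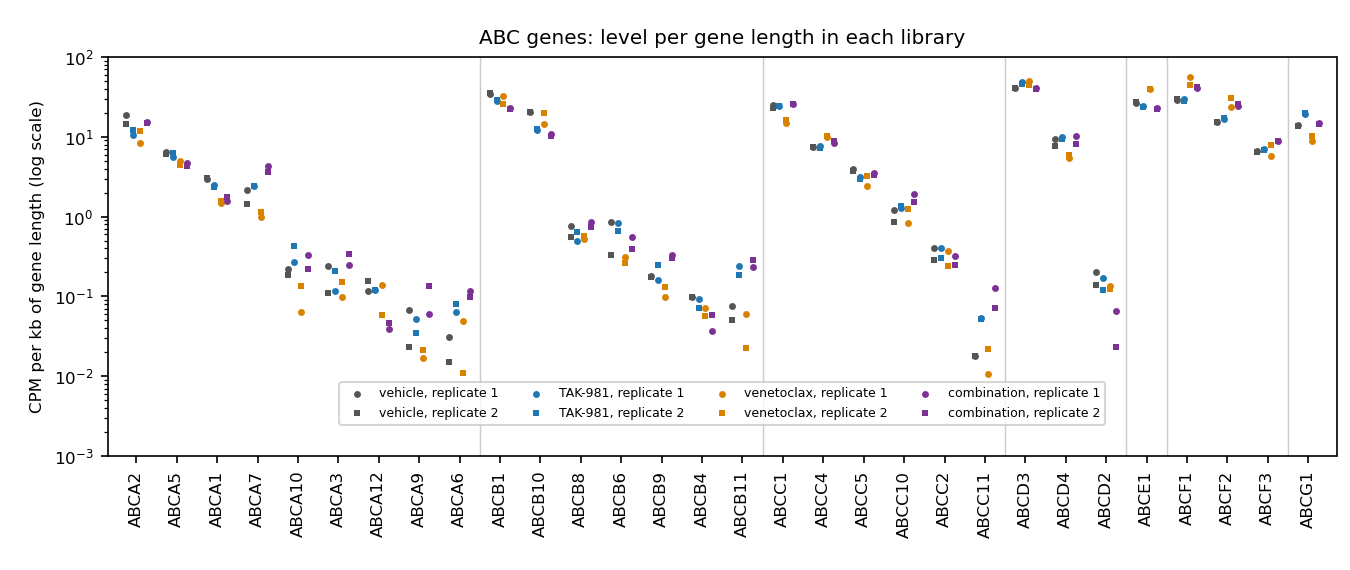
Level of 30 tested ABC genes in each library, in CPM per kb of gene length on a log axis, by gene and group. ABCD3, ABCB1, ABCF1, ABCE1 and ABCC1 lead in vehicle, between 24.1 and 40.9 CPM per kb.

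In 5 comparisons of 2 groups and the interaction, the test was edgeR's quasi-likelihood F test, two-sided, with Benjamini-Hochberg adjustment over 12843 genes and a threshold of 0.05, and it is the source of every adjusted p-value below where no other tool is given. Fold changes are log2 values of the fit with an approximate SE derived from its F. TAK-981 against vehicle called 3 of 32 ABC genes (9.38%), 2 higher and 1 lower, where 12.2% of all tested genes were called, 5.98% higher and 6.18% lower. Venetoclax against vehicle called 11 (34.4%), 4 higher and 7 lower, against 20.8% of all genes, 11.4% higher and 9.44% lower. The combination against vehicle called 16 (50%), 9 higher and 7 lower, against 27.9%, 12.8% higher and 15.1% lower. The combination against venetoclax called 15 (46.9%), 12 higher and 3 lower, against 39.6%, 17.6% higher and 22% lower. Against TAK-981 it called 4 (12.5%), 2 higher and 2 lower, against 8.80%, 2.76% higher and 6.03% lower. These comparisons share control libraries and are not independent of each other. Of the 32 genes, 8 were called in none of the 5 comparisons, 7 in 1, 10 in 2, 6 in 3, and ABCG1 in 4. The same tally was not made over all tested genes, so it has no background to be read against.

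These counts depended on single libraries and on the 1 spread that the 4 groups share in the fit. The share of all genes called also moved, though not always in step with them. The venetoclax libraries lay further apart than those of the other groups, so the p-values with venetoclax rest partly on a smaller spread. Fitted on the 4 libraries of each comparison alone, TAK-981 called 12 ABC genes (32.5% of all genes) and venetoclax 1 (1.63%). Which single drug called more ABC genes thus depended on the fit. The count for TAK-981 was 0 without any 1 vehicle or TAK-981 library (2.55 to 2.98% of all genes) and 10 without either venetoclax library (29.4 and 29.5% of all genes). The count for venetoclax was 1, ABCA1, without vehicle replicate 1 (1.93% of all genes) and also when its 4 libraries were fitted alone (1.63%). The count for the combination against vehicle was 5 to 8 without any 1 vehicle or combination library (10.9 to 15.2% of all genes), and that against venetoclax was 9 without combination replicate 1 (22.8%). Against TAK-981 it was 0 without any 1 vehicle, TAK-981 or combination library (0.496 to 4.07%) and 13 without either venetoclax library (27.8 and 28%).

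By subfamily, venetoclax lowered 4 of 9 tested ABCA genes and raised none, and called none of 8 ABCB genes. It raised ABCE1 and 2 of 3 ABCF genes. It raised 1 and lowered 1 of 6 ABCC genes, and lowered 1 of 4 ABCD genes and ABCG1. Of all tested genes, 11.4% were called higher and 9.44% lower. The median log2 difference from vehicle over the 32 genes was -0.41 with venetoclax, where that of all genes was 0, and 0.09 with the combination, where that of all genes was 0.01. With the combination all 3 ABCF genes rose, 3 of 8 ABCB genes fell and 2 rose, and 3 of 9 ABCA genes fell and 2 rose. In addition 2 of 6 ABCC genes rose, 1 of 4 ABCD genes fell, and ABCE1 and ABCG1 were not called. Of all tested genes, 12.8% were called higher and 15.1% lower. The summed level of the 3 ABCF genes was 50.5 and 51.6 CPM per kb in vehicle, 53.4 and 52.2 with TAK-981, 85.2 and 82.9 with venetoclax, and 74.2 and 76.8 with both drugs. That of the ABCB genes was 77.4 and 78.2 in vehicle, 60.2 in each TAK-981 library, 66.4 and 64.7 with venetoclax, and 51.0 and 50.03 with both. In these sums no treated library overlaps vehicle in either subfamily. The sums of ABCA, ABCC and ABCD do overlap vehicle in some treated groups. For ABCA they were 26.5 and 25.5 CPM per kb with both drugs, against 31.02 and 25.3 in vehicle. For ABCB the TAK-981 libraries lie further below vehicle than those of venetoclax alone, and for ABCF they lie only slightly above vehicle. How often other genes separate in this way was not counted.

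**Figure D2:**
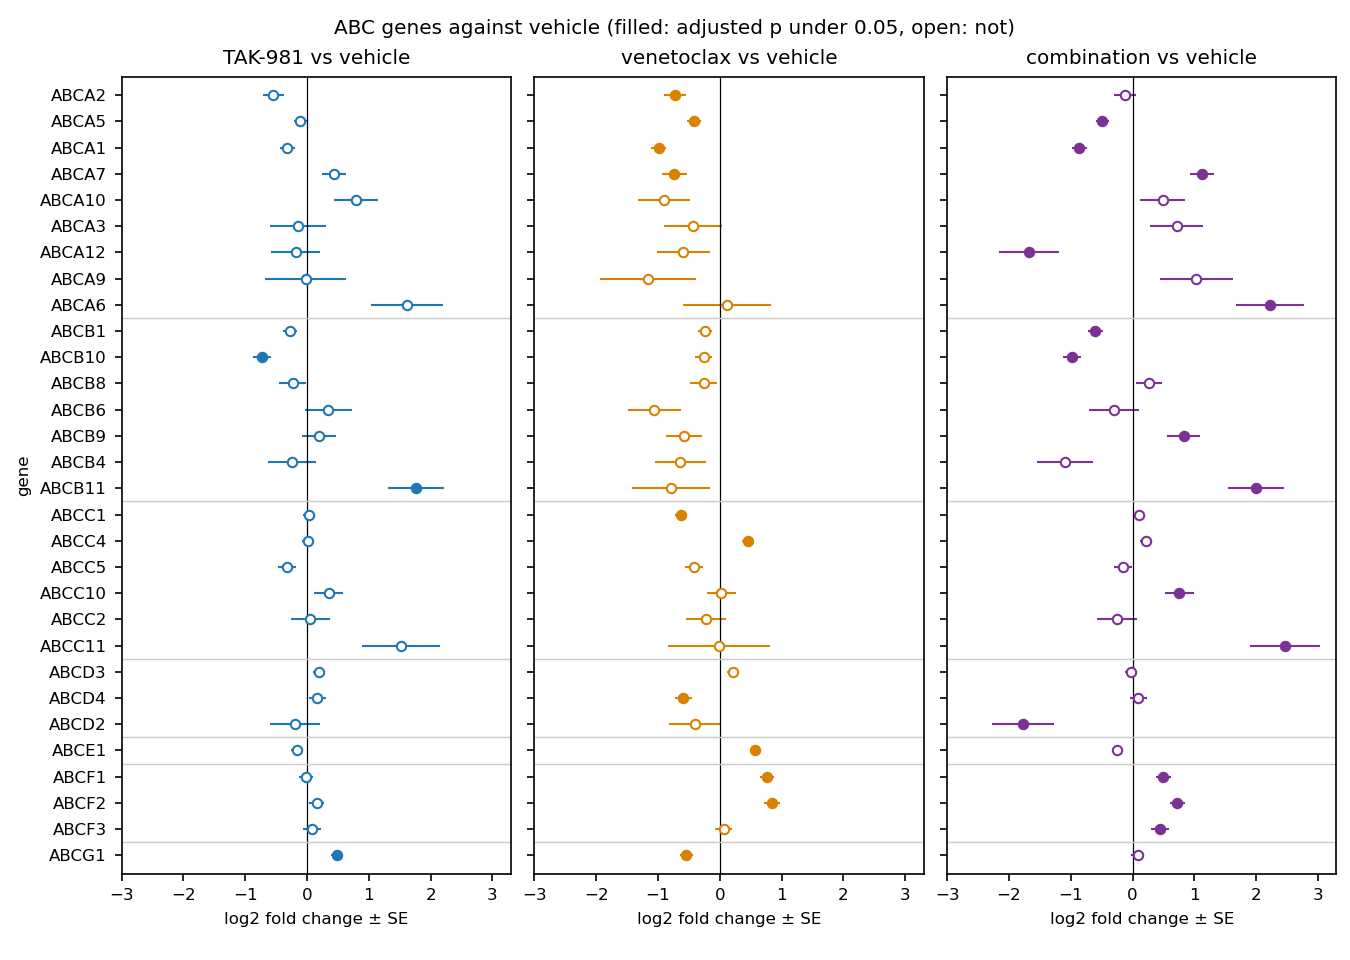
Log2 fold change from vehicle of 30 tested ABC genes with TAK-981, venetoclax and the combination, with its approximate SE as a bar, grouped by subfamily. With venetoclax ABCA1 stands at -0.99 and ABCF2 at 0.85, and with the combination ABCB10 stands at -0.98.

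Among the drug and anion pumps, ABCB1 fell with the combination and ABCC1 fell with venetoclax alone. ABCB1 (chromosome 7, 87503633 to 87713323, hg38) had 196 and 203 CPM in vehicle, 164 and 166 with TAK-981, 189 and 149.7 with venetoclax and 134 and 129 with both drugs. Both combination libraries lie below all 6 others, and the venetoclax libraries differ from each other by more than those of any other group. The change with the combination was -0.60 ± 0.117 (SE) from vehicle (adjusted p = 0.00554) and -0.36 ± 0.117 from venetoclax (adjusted p = 0.0357). TAK-981 alone gave -0.27 and venetoclax alone -0.24, neither past the threshold. The change with TAK-981 was called by edgeR on the 4 libraries alone (adjusted p = 0.00464) and without both venetoclax libraries (adjusted p = 0.00512). With the combination ABCB1 was at -0.33 ± 0.117 from TAK-981, not called (adjusted p = 0.121) but called on those 4 libraries alone (adjusted p = 0.00216). The fall from vehicle was not called without vehicle replicate 2 or combination replicate 2 (-0.63 to -0.57 over the 8 fits that leave out 1 library), and that from venetoclax was called in 1 of 8 such fits (-0.53 to -0.19).

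ABCC1, or MRP1, exports glutathione conjugates and several anticancer drugs (chromosome 16, 15949577 to 16143074). It had 191 and 172 CPM in vehicle, 186 and 185 with TAK-981, 113 and 123 with venetoclax and 194 and 195 with both drugs. The venetoclax libraries are the only pair below the others. ABCC1 fell by 0.62 on the log2 scale with venetoclax (SE 0.0958, adjusted p = 0.00453) and was 0.72 ± 0.0961 higher with the combination than with venetoclax (adjusted p = 0.000847). The first was not called without vehicle replicate 1 (-0.69 to -0.55 over the 8 fits), and the second was called in all 8. ABCC4, or MRP4, an exporter of cyclic nucleotides and nucleoside drugs (chromosome 13, 95019829 to 95301446), moved the other way with venetoclax: it had 57.2 and 58.5 CPM in vehicle, 59.6 and 57.2 with TAK-981, 78.4 and 79.6 with venetoclax and 65.8 and 68.96 with both drugs. Its rise with venetoclax was 0.45 ± 0.092 (adjusted p = 0.0114), and it was not called without vehicle replicate 1 or without vehicle replicate 2 (0.44 to 0.47).

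The other tested ABCC genes were lower in abundance. ABCC10, an exporter of lipophilic drugs, had 9.64 and 6.96 CPM in vehicle, 10.4 and 10.9 with TAK-981, 6.63 and 10.01 with venetoclax and 15.6 and 12.4 with both drugs. It was 0.76 ± 0.236 higher with the combination than in vehicle (adjusted p = 0.0402) and 0.73 ± 0.238 higher than with venetoclax (adjusted p = 0.0369), and leaving out any vehicle, TAK-981 or combination library ended the first call (0.54 to 1.01), while the second ended without any TAK-981 or combination library or venetoclax replicate 1 (0.49 to 1.08). ABCC11 rested on few reads, with 6 counts in vehicle, 16 with TAK-981, 5 with venetoclax and 27 with both. Its libraries held 0.130 and 0.128 CPM in vehicle, 0.387 and 0.374 with TAK-981, 0.0762 and 0.156 with venetoclax and 0.914 and 0.510 with both drugs. Its fitted difference was 2.47 ± 0.572 from vehicle (adjusted p = 0.0119; not called by DESeq2) and 2.48 ± 0.601 from venetoclax (adjusted p = 0.011), the first ending without vehicle replicate 1, vehicle replicate 2 or combination replicate 1 (1.92 to 2.77 over the 8 fits) and the second without combination replicate 1 (1.94 to 3.18). ABCC5, an exporter of cyclic nucleotides, ran from 27.7 to 45.1 CPM and ABCC2 from 1.48 to 2.49 CPM. Neither was called in any comparison of the edgeR fit to all 8 libraries. ABCC5 was called lower with TAK-981 by edgeR on the 4 libraries alone (-0.31, adjusted p = 0.0119). With venetoclax it was called lower by DESeq2 (-0.43, adjusted p = 0.0436).

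**Figure D3:**
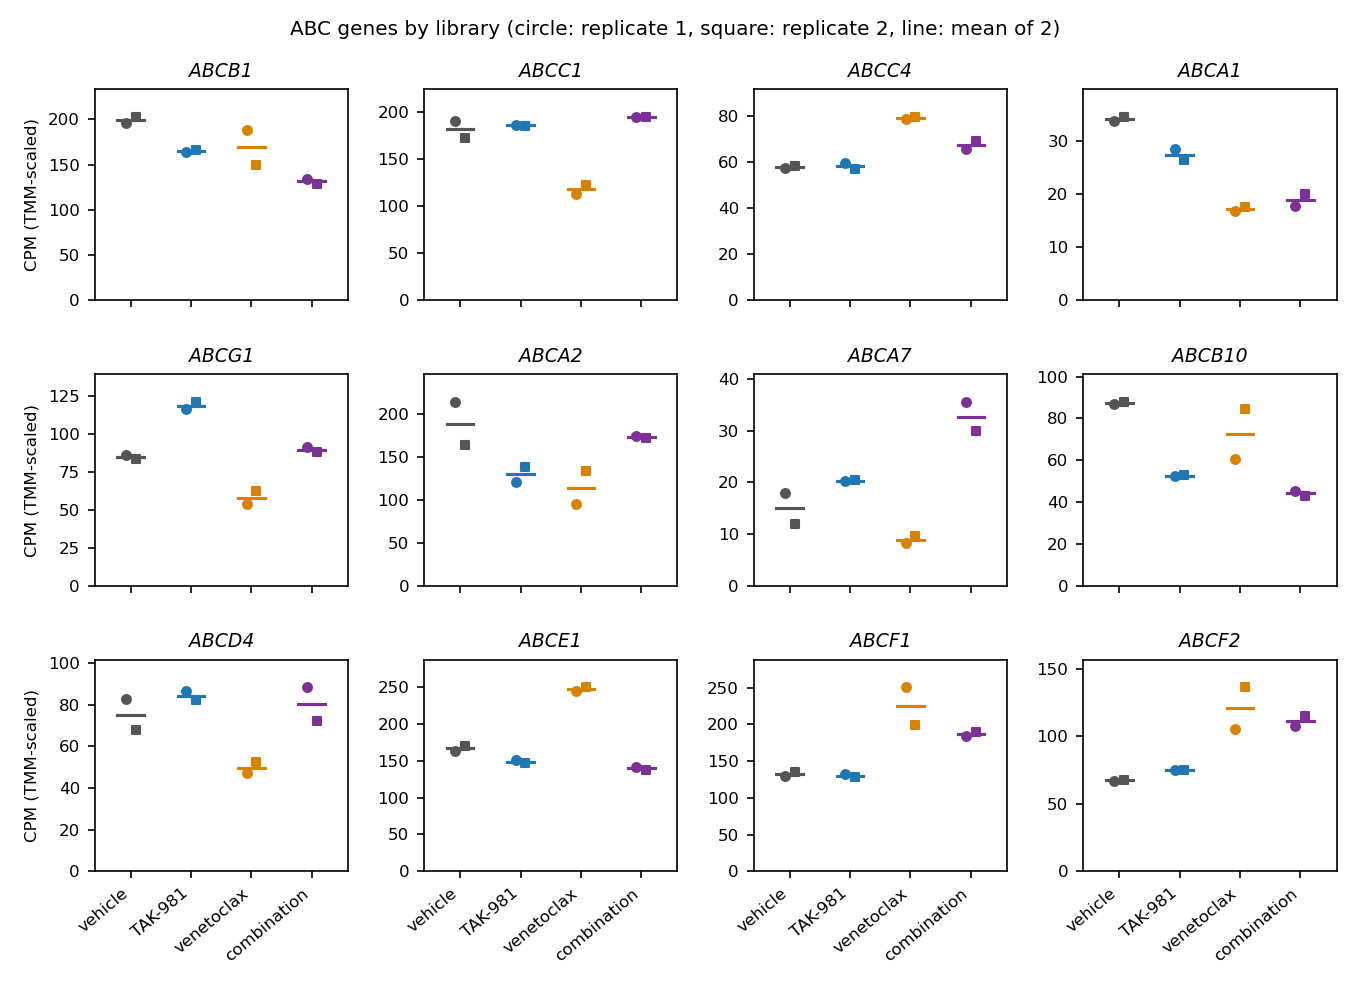
CPM in each of the 8 libraries for ABC genes of the main roles, by group, with 1 point for each library. The 2 venetoclax libraries of ABCC1 sit at 113 and 123 CPM, below all others, and those of ABCE1 at 245 and 249 CPM, above all others.

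The cholesterol exporters ABCA1 and ABCG1 both fell with venetoclax, and TAK-981 raised ABCG1. ABCA1 loads cholesterol onto apolipoprotein A-I (chromosome 9, 104781002 to 104928237). It had 33.8 and 34.6 CPM in vehicle, 28.4 and 26.4 with TAK-981, 16.9 and 17.6 with venetoclax and 17.8 and 19.95 with both drugs. The 4 libraries that received venetoclax, alone or with TAK-981, lie below the 4 that did not. ABCA1 fell by 0.99 with venetoclax (SE 0.123, adjusted p = 0.00234) and by 0.86 with the combination (SE 0.122, adjusted p = 0.00126), and both were called in each of the 8 fits without 1 library. It was also lower in the combination than with TAK-981 (log2 change -0.54, SE 0.123, adjusted p = 0.0282), a call that ended without any vehicle, TAK-981 or combination library (-0.63 to -0.46).

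ABCG1, which passes cholesterol to high-density lipoprotein (chromosome 21, 42199689 to 42297244), had 86.04 and 83.3 CPM in vehicle, 116 and 121 with TAK-981, 53.5 and 62.5 with venetoclax and 91.03 and 88.3 with both drugs. The groups order as venetoclax, then vehicle and combination, then TAK-981, with no overlap between venetoclax and any other group. It rose by 0.49 ± 0.101 with TAK-981 (adjusted p = 0.0153), fell by 0.54 with venetoclax (SE 0.102, adjusted p = 0.00868), and was 0.63 ± 0.103 higher in the combination than with venetoclax (adjusted p = 0.00203). Against TAK-981 the combination was lower (-0.40 ± 0.101, adjusted p = 0.04). Only the comparison with venetoclax was called in all 8 fits (0.51 to 0.73). The rise with TAK-981 ended without any 1 vehicle or TAK-981 library (0.46 to 0.51), the fall with venetoclax without either vehicle library (-0.66 to -0.44), and the difference from TAK-981 without any vehicle, TAK-981 or combination library (-0.43 to -0.38).

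Of the other ABCA genes, ABCA7 rose with the combination. ABCA7, a phospholipid transporter of blood and brain cells (chromosome 19, 1040101 to 1065572), had 17.9 and 12.04 CPM in vehicle, 20.3 and 20.4 with TAK-981, 8.30 and 9.55 with venetoclax and 35.5 and 29.9 with both drugs. The combination lies above every other group. It rose by 1.13 ± 0.194 with the combination over vehicle (adjusted p = 0.00309) and by 1.87 ± 0.203 over venetoclax (adjusted p = 0.000413), both called in all 8 fits, although leaving out 1 library moved the first from 0.86 to 1.44. Its fall with venetoclax (-0.74 ± 0.203, adjusted p = 0.0329) ended without vehicle replicate 1 and without any TAK-981 or combination library (-0.996 to -0.423).

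ABCA2, a lysosomal lipid transporter, had 214 and 164 CPM in vehicle, 121 and 138 with TAK-981, 94.97 and 134 with venetoclax and 174 and 172 with both drugs. Its vehicle libraries differ widely and still lie above those of TAK-981 and of venetoclax. With TAK-981 ABCA2 was at -0.54 ± 0.174 from vehicle, not called (adjusted p = 0.0777). It was called there by DESeq2 (adjusted p = 0.028) and by edgeR on the 4 libraries alone (adjusted p = 0.00968). It fell by 0.72 with venetoclax (SE 0.175, adjusted p = 0.0209; not called without vehicle replicate 1, -0.99 to -0.49) and was 0.60 ± 0.175 higher in the combination than with venetoclax (adjusted p = 0.0251; not called without venetoclax replicate 1 or either combination library, 0.36 to 0.86). ABCA5, another lysosomal transporter, had 85.8 and 79.5 CPM in vehicle, 72.2 and 81.3 with TAK-981, 65.3 and 58.4 with venetoclax and 60.8 and 57.1 with both drugs. It fell by 0.42 with venetoclax (SE 0.109, adjusted p = 0.0266) and by 0.49 with the combination (SE 0.109, adjusted p = 0.0104). The first ended without any vehicle, TAK-981 or combination library (-0.50 to -0.34) and the second without vehicle replicate 1 or combination replicate 2 (-0.54 to -0.44).

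The ABCA genes near the detection limit were called on small counts. ABCA6 had 15 counts in vehicle, 42 with TAK-981, 13 with venetoclax and 55 with both, and its libraries held 0.434 and 0.213 CPM in vehicle, 0.902 and 1.12 with TAK-981, 0.685 and 0.156 with venetoclax and 1.65 and 1.38 with both drugs. ABCA10 had 78, 120, 36 and 86 counts in the same order, with 1.82 and 1.54 CPM in vehicle, 2.28 and 3.58 with TAK-981, 0.533 and 1.13 with venetoclax and 2.79 and 1.82 with both drugs. ABCA9 had 19, 17, 7 and 29, with 0.608 and 0.213 CPM in vehicle, 0.473 and 0.321 with TAK-981, 0.152 and 0.195 with venetoclax and 0.549 and 1.24 with both drugs. Over venetoclax the combination gave 2.10 ± 0.578 for ABCA6 (adjusted p = 0.0188), 1.39 ± 0.414 for ABCA10 (adjusted p = 0.0264) and 2.19 ± 0.715 for ABCA9 (adjusted p = 0.0368). ABCA6 was also called over vehicle (2.22 ± 0.555, adjusted p = 0.0167). Each of the 4 calls ended without at least 1 library of the groups compared, and over those fits ABCA6 moved from 1.14 to 3.24, ABCA10 from 1.01 to 2.13, ABCA9 from 1.58 to 2.74 and ABCA6 over vehicle from 1.80 to 2.80. ABCA12, with 59, 47, 31 and 14 counts and 1.09 and 1.45 CPM in vehicle, 1.12 and 1.12 with TAK-981, 1.29 and 0.546 with venetoclax and 0.366 and 0.437 with both drugs, fell with the combination (-1.67 ± 0.487, adjusted p = 0.0314; not called by DESeq2, nor without any vehicle, TAK-981 or combination library). ABCA3 ran from 0.762 to 2.62 CPM and was not called.

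Among mitochondrial ABCB genes, ABCB10 fell with TAK-981 and with the combination. ABCB10, an exporter of the inner mitochondrial membrane linked to heme synthesis (chromosome 1, 229516582 to 229558695), had 86.9 and 87.8 CPM in vehicle, 52.3 and 52.8 with TAK-981, 60.6 and 84.5 with venetoclax and 45.4 and 43.1 with both drugs. The TAK-981 and combination libraries lie below the vehicle and venetoclax libraries. It fell by 0.73 with TAK-981 (SE 0.144, adjusted p = 0.0124), by 0.98 with the combination over vehicle (SE 0.146, adjusted p = 0.0016) and by 0.72 over venetoclax (SE 0.146, adjusted p = 0.00522). The last 2 were called in all 8 fits, with -0.94 to -0.46 for the comparison with venetoclax, and the first ended without any 1 vehicle or TAK-981 library (-0.74 to -0.73).

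ABCB6, a porphyrin transporter, had 6.47 and 2.48 CPM in vehicle, 6.32 and 5.03 with TAK-981, 2.36 and 1.99 with venetoclax and 4.16 and 2.99 with both drugs, and its vehicle libraries span most of the range of all 8. ABCB8 ran from 4.64 to 7.86 CPM and ABCB4, a phospholipid exporter of bile, from 0.274 to 0.738. None of the 3 was called in any comparison. ABCB9, a lysosomal peptide transporter, had 2.35 and 2.26 CPM in vehicle, 2.06 and 3.26 with TAK-981, 1.29 and 1.71 with venetoclax and 4.25 and 3.93 with both drugs. It was higher in the combination than in vehicle (0.83 ± 0.268, adjusted p = 0.0455; not called by DESeq2 nor without any 1 vehicle or combination library) and than with venetoclax (1.41 ± 0.288, adjusted p = 0.00531; called in all 8 fits). ABCB11, the bile salt export pump of liver, had 15 counts in vehicle, 47 with TAK-981, 7 with venetoclax and 46 with both, and its libraries held 0.391 and 0.256 CPM in vehicle, 1.25 and 0.962 with TAK-981, 0.305 and 0.117 with venetoclax and 1.19 and 1.46 with both drugs. The libraries with TAK-981 all lie above those without. The fitted rise was 1.77 ± 0.449 with TAK-981 (adjusted p = 0.0344), 1.995 ± 0.449 with the combination over vehicle (adjusted p = 0.0106) and 2.79 ± 0.524 over venetoclax (adjusted p = 0.00367). Only the last was called in all 8 fits (2.07 to 3.41), and the first ended without any vehicle, TAK-981 or combination library and by DESeq2.

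ABCD4, the lysosomal transporter that releases cobalamin, fell with venetoclax and was not called with the combination. It lies on chromosome 14, 74285423 to 74303056, and had 82.7 and 67.8 CPM in vehicle, 86.4 and 82.5 with TAK-981, 47.2 and 52.5 with venetoclax and 88.4 and 72.02 with both drugs. The venetoclax libraries lie below the 6 others. The difference from vehicle was -0.59 ± 0.137 (adjusted p = 0.0177; not called without vehicle replicate 1, -0.73 to -0.44), and the combination was 0.69 ± 0.138 above venetoclax (adjusted p = 0.00495; called in all 8 fits). ABCD2, a peroxisomal transporter, had 49, 39, 31 and 11 counts in vehicle, TAK-981, venetoclax and both, with 1.26 and 0.854 CPM in vehicle, 1.07 and 0.749 with TAK-981, 0.838 and 0.779 with venetoclax and 0.412 and 0.146 with both drugs. It fell with the combination (-1.78 ± 0.505, adjusted p = 0.0281; -2.81 to -1.35 without 1 library, not called without either vehicle library or combination replicate 2, nor by DESeq2). ABCD3 ran from 300.2 to 371 CPM and was not called.

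Of the 4 genes for ribosome-bound ABC proteins, the mRNAs of ABCE1, ABCF1 and ABCF2 rose with venetoclax and that of ABCF3 was not called (0.06, adjusted p = 0.791). ABCE1 splits ribosomes after termination (chromosome 4, 145097932 to 145129179) and had 164 and 169.7 CPM in vehicle, 150.5 and 147 with TAK-981, 245 and 249 with venetoclax and 142 and 138 with both drugs. The venetoclax libraries lie above the 6 others. ABCE1 rose by 0.57 ± 0.0867 with venetoclax (adjusted p = 0.00443; not called without vehicle replicate 1, 0.54 to 0.60) and was lower in the combination than with venetoclax (log2 change -0.82, SE 0.0873, adjusted p = 0.000361; called in all 8 fits). ABCF1, which takes part in translation initiation (chromosome 6, 30571376 to 30597179), had 129 and 135 CPM in vehicle, 132 and 128 with TAK-981, 251 and 199 with venetoclax and 184 and 189 with both drugs. ABCF2 (chromosome 7, 151207837 to 151227230) had 66.9 and 67.7 CPM in vehicle, 74.99 and 75.1 with TAK-981, 106 and 136 with venetoclax and 108 and 115 with both drugs. For both genes the 4 libraries with venetoclax, alone or combined, lie above the 4 without.

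ABCF1 rose by 0.77 ± 0.116 with venetoclax (adjusted p = 0.00442), by 0.50 ± 0.116 with the combination (adjusted p = 0.0122) and by 0.52 ± 0.116 in the combination over TAK-981 (adjusted p = 0.0276). ABCF2 rose by 0.85 ± 0.124, 0.73 ± 0.124 and 0.57 ± 0.124 in the same comparisons (adjusted p = 0.00385, 0.003 and 0.0251). The venetoclax calls of both ended without vehicle replicate 1 (0.60 to 0.92 and 0.65 to 1.02), the comparisons with TAK-981 without any vehicle, TAK-981 or combination library, and that of ABCF1 with the combination without any 1 vehicle or combination library (0.47 to 0.52). The rise of ABCF2 with the combination was called in all 8 fits. ABCF3 had 34.5 and 33.2 CPM in vehicle, 36.3 and 35.3 with TAK-981, 29.7 and 40.5 with venetoclax and 46.5 and 45.4 with both drugs and was called only with the combination over vehicle (0.44 ± 0.144, adjusted p = 0.0478), a call that ended without any vehicle, TAK-981 or combination library (0.41 to 0.46).

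The stretches before the start of 4 genes whose levels changed are given to show the letters that the motif counts below refer to. They are from RefSeq (GRCh38.p14), written 5′ to 3′ on the strand of the gene and cut where the gene model of the count table begins, with matches to the E-box CACGTG and the GC box GGGCGG, on either strand, in capitals.
ABCA1, chr9:104928238-104928405, minus strand: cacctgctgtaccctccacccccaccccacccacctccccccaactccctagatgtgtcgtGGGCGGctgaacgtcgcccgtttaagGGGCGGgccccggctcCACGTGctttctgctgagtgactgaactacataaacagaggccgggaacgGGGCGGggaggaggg
ABCB10, chr1:229558708-229558957, minus strand: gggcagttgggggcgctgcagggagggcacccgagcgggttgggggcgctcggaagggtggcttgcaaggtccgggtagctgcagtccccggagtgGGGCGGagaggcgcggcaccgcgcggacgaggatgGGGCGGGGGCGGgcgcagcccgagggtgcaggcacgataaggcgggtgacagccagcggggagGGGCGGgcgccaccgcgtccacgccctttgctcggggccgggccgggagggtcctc
ABCF1, chr6:30571192-30571375, plus strand: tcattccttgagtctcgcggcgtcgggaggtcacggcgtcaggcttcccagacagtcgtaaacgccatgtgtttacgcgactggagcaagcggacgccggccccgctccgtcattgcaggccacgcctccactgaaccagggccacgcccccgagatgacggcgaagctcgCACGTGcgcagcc
ABCF2, chr7:151227231-151227455, minus strand: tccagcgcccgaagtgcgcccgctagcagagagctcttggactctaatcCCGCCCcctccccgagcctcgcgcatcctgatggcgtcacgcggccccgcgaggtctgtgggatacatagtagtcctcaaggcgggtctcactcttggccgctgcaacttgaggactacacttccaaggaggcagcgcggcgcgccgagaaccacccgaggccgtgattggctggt
In these stretches ABCA1 holds 1 E-box and 3 GC boxes, ABCB10 holds 4 GC boxes, ABCF1 holds 1 E-box and ABCF2 holds 1 GC box. RefSeq entries were found for 35 of the 45 genes. Over the full 250 bases before the start, not cut at the gene model, 4 of 35 (11.4%) held an E-box, against 6.49% of 27305 promoters. A GC box was in 18 (51.4%), against 42.3%. Some of these matches lie inside the gene model of the count table. The full window of ABCF1 holds 1 GC box and its printed stretch 0. The antioxidant element TGACNNNGC was in 6 (17.1%) against 11%. The direct-repeat LXR element was in 0 against 0.0146% (4 of 27305). An exact pattern this rare cannot tell 35 promoters from others, and looser matches were not searched. The median GC content was 61.6% against 58.0%. A match is a run of letters, and binding was not measured.

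The effect of TAK-981 with venetoclax was compared with its effect without. No ABC gene passed the threshold for this difference in edgeR's quasi-likelihood test (0 of 32), where 4 of all genes did (0.0311%). At an unadjusted p under 0.05, 11 of 32 did (34.4%), against 18.9% of all genes. The closest were ABCE1 (-0.66 ± 0.123, adjusted p = 0.0999), ABCC1 (0.69 ± 0.135, adjusted p = 0.108), ABCA7 (1.43 ± 0.279, adjusted p = 0.108) and ABCA2 (1.14 ± 0.247, adjusted p = 0.117). DESeq2 called these 4 genes, as -0.64, 0.71, 1.45 and 1.16, where it called 2.3% of all genes. Without a filter on low counts edgeR also called them, where it called 6.06% of all genes. By limma-voom 0 ABC genes were called, and 0.0701% of all genes. Without venetoclax replicate 2, 10 ABC genes were called where 33.9% of all genes were, and without venetoclax replicate 1, 5 where 5.4% of all genes were. For ABCB10 the difference was 0.01 ± 0.204 and for ABCG1 0.14 ± 0.144.

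**Figure D4:**
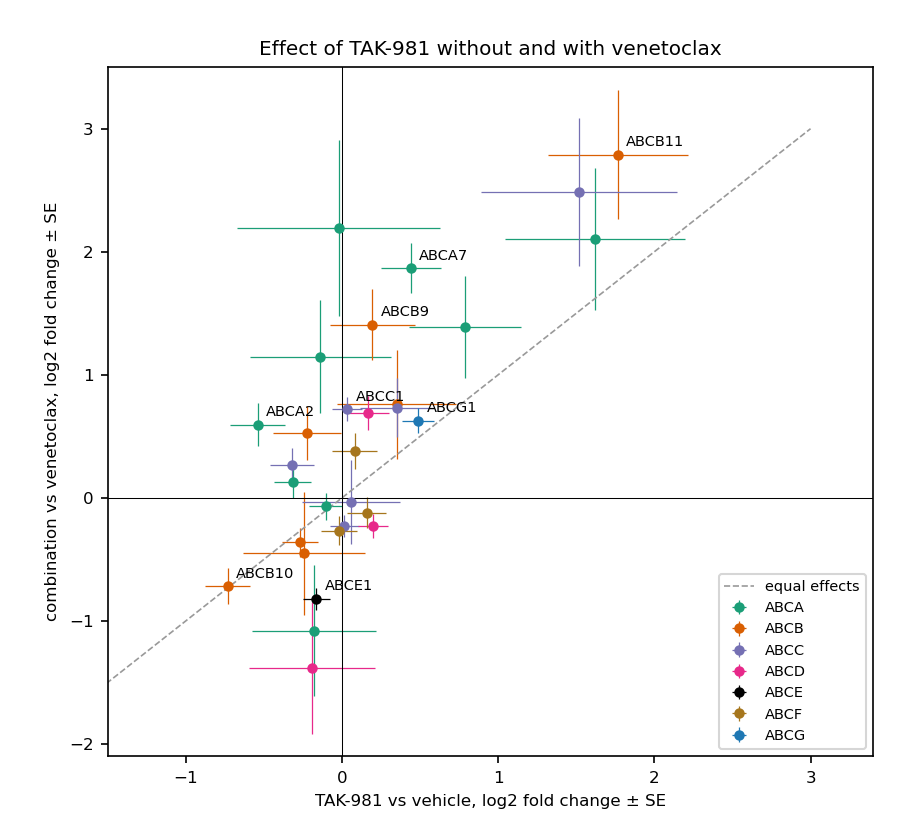
Log2 effect of TAK-981 without venetoclax (horizontal) and with it (vertical) for 30 tested ABC genes, with the line of equal effects. ABCC1, ABCA2 and ABCA7 lie above the line and ABCE1 below it, and ABCB10 lies on it at about -0.73 and -0.72.

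Genes that work with the ABC proteins were taken from 9 lists with 144 genes, and their counts are read against the share of all tested genes called: 12.2% with TAK-981, 20.8% with venetoclax, 27.9% with the combination against vehicle, 39.6% against venetoclax and 8.80% against TAK-981. TAP1 and TAP2, the ABC peptide transporter of antigen presentation that the symbol rule misses, were tested and CFTR was not. TAP1 had 91.4 and 90.1 CPM in vehicle, 132 and 136 with TAK-981, 46.6 and 77.7 with venetoclax and 148 and 205 with both drugs. It was higher in the combination than in vehicle (0.96, adjusted p = 0.0113) and than with venetoclax (1.49, adjusted p = 0.00135), and TAP2 was not called.

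Of 17 tested genes of the LXR axis and cholesterol efflux, which serves ABCA1 and ABCG1, venetoclax lowered 4 and raised none (23.5%, against 20.8% of all genes), and TAK-981 raised 2 and lowered 3 (29.4%, against 12.2%). Their median log2 difference was -0.36 with venetoclax and -0.13 with TAK-981, where those of all genes were 0 and 0.00149. RXRA, the partner receptor of LXR, had 45.6 and 44.6 CPM in vehicle, 70.2 and 86.1 with TAK-981, 25.97 and 21.8 with venetoclax and 42.9 and 51.4 with both drugs. MYLIP, an LXR target that degrades the LDL receptor, had 55.8 and 56.98 CPM in vehicle, 98.4 and 98.5 with TAK-981, 41.9 and 41.2 with venetoclax and 72.01 and 64.8 with both drugs. Both genes rose with TAK-981 (0.79 and 0.80, adjusted p = 0.00833 and 0.00127) and fell with venetoclax (-0.92 and -0.44, adjusted p = 0.00516 and 0.0151). The sterol carrier STARD4 fell with both single drugs (-0.47 with TAK-981, adjusted p = 0.0288; -0.87 with venetoclax, adjusted p = 0.00278). The fatty acid desaturase SCD and the lipoprotein receptor SCARB1 fell with TAK-981 (-0.88 and -0.72, adjusted p = 0.00327 and 0.0373), and with venetoclax they were at -0.36 and 0.13, not called. SREBF1, a regulator of lipid synthesis, fell with venetoclax (-0.62, adjusted p = 0.0311). Of the 17, the combination lowered 4 and raised none against vehicle (23.5%, against 27.9%), raised 7 and lowered 3 against venetoclax (58.8%, against 39.6%), and lowered 5 against TAK-981 (29.4%, against 8.80%). STARD4 and SCD fell with the combination against vehicle (-1.785 and -1.941, adjusted p = 4.02e-05 and 4.2e-05).

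Of 17 tested genes of ribosome rescue and recycling, the partners of ABCE1, venetoclax raised 6 and lowered none (35.3%, against 20.8% of all genes), and the combination lowered 7 and raised none against venetoclax (41.2%, near the 39.6% of all genes). Their median log2 difference was 0.23 and -0.21 in these comparisons, where those of all genes were 0 and -0.0215. The release factor ETF1 had 123 and 127 CPM in vehicle, 125 and 122 with TAK-981, 181 and 182 with venetoclax and 132 and 129 with both drugs, and its partner GSPT1 had 302 and 327 CPM in vehicle, 292 and 267 with TAK-981, 542 and 445 with venetoclax and 304 and 314 with both drugs. They rose by 0.54 and 0.65 with venetoclax (adjusted p = 0.00492 and 0.00819) and fell by 0.48 and 0.68 in the combination against venetoclax (adjusted p = 0.00292 and 0.00285). No gene of this list was called with TAK-981 or in the combination against TAK-981, and LTN1 alone fell with the combination against vehicle (-0.40, adjusted p = 0.0178).

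Of 23 tested genes of heme and iron-sulfur assembly, pathways of mitochondria, TAK-981 called none, venetoclax raised 6 (26.1%, against 20.8% of all genes), and the combination raised 3 and lowered 2 against vehicle (21.7%, against 27.9%) and raised 1 and lowered 9 against venetoclax (43.5%, against 39.6%). Apart from TAK-981, these shares are near those of all genes. CPOX, an enzyme of heme synthesis, fell by 0.60 with the combination against vehicle (adjusted p = 0.00591) and UROD, another, rose by 0.62 (adjusted p = 0.00212). Of 10 cobalamin genes, LMBRD1, the lysosomal partner of ABCD4, had 71.01 and 81.1 CPM in vehicle, 70.4 and 72.9 with TAK-981, 49.9 and 53.1 with venetoclax and 47.2 and 48.4 with both drugs, and it fell with venetoclax (-0.56, adjusted p = 0.00828) and with the combination (-0.67, adjusted p = 0.00196). MMAB, an enzyme of the same pathway, fell with TAK-981 (-1.11, adjusted p = 0.000909) and with the combination (-1.28, adjusted p = 0.000223). Against vehicle, TAK-981 lowered 1 of the 10 (12.2% of all genes were called), venetoclax 1 (20.8%) and the combination 3 (27.9%). Against venetoclax the combination raised 2 of the 10 and lowered 5 (70%, against 39.6% of all genes).

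Of 22 peroxisomal genes, partners of the ABCD transporters, TAK-981 lowered 1 (4.55%, against 12.2% of all genes), venetoclax raised 1 (4.55%, against 20.8%), and the combination raised 1 and lowered 3 against vehicle (18.2%, against 27.9%). PEX2, a peroxisome import factor, fell with TAK-981 (-0.62, adjusted p = 0.00556) and the combination (-0.80, adjusted p = 0.000828). Of 15 glutathione genes, whose products supply the substrates of ABCC1, TAK-981 lowered 1 (6.67%), venetoclax raised 1 (6.67%) and the combination lowered 2 (13.3%), where 12.2%, 20.8% and 27.9% of all genes were called. The cystine carrier SLC7A11 fell with the combination (-1.14, adjusted p = 0.000588). Of 15 nucleoside and drug carriers, TAK-981 lowered 2 (13.3%, against 12.2%), venetoclax 1 (6.67%, against 20.8%), and the combination raised 2 and lowered 4 (40%, against 27.9%). Of 10 regulators of pump genes, TAK-981 called none, venetoclax raised 2 (YBX1 by 0.88 and NFE2L2 by 0.42, adjusted p = 0.0177 and 0.0192) and lowered FOXO3 (-0.44, adjusted p = 0.0113), and the combination raised NFE2L2 (0.43, adjusted p = 0.0129) and lowered AHR (-0.71, adjusted p = 0.00708). These were 3 of 10 and 2 of 10, where 20.8% and 27.9% of all genes were called. These lists were described by counts, and their part in the levels of the ABC genes was not tested.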

How the data were processed

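KG1a RNA was isolated with a miRNeasy kit and read from 1 end, per the labels' protocols. Ribosomal RNA depletion is named in the series' design text, but a SMART-Seq low-input kit in the labels' protocols. The authors deposited raw counts of reads for 25168 genes (hg38), with each gene's length in kb, which was used only for levels per kb. The submitters' processing notes name Trimmomatic, STAR 2.6.0, HTSeq 0.11.1 and edgeR without saying what each did. Sources used here do not give the annotation release or the strand setting.

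The counts went into edgeR 4.0.16 (R 4.3.3, limma 3.58.1) with TMM scaling, filterByExpr by group (12843 genes kept), robust dispersions and a single model of 4 group means for the 8 libraries. Tests were two-sided and adjusted by Benjamini-Hochberg over the 12843 genes, at a threshold of 0.05. Dividing the absolute log2 fold change by the root of F gave each approximate SE. Totals before scaling ran from 13204588 to 26304900. Alternatives were DESeq2 size factors, no filter, a mean of at least 1 CPM, a replicate block, each library left out, DESeq2 1.42.0, limma-voom, the 4 libraries of a comparison alone, and leaving out both venetoclax libraries.

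The members, the 9 lists and the alternatives were chosen with earlier results of these data known. Tested members are named with their levels, except that some single-gene results are not reported here; counts, medians and subfamily sums cover all tested members. Values in every library are given for members called in at least 1 comparison and for a set of pumps, lipid exporters, mitochondrial and ribosome-bound members, and called genes with the smallest p, at most 4 a comparison, stand for each list. The 4 printed promoters were chosen after values were seen. A planned search of protein sequences was not run, and promoters of 10 members were not analysed here.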

Additional observations from a re-analysis of the deposited data

How the results depend on the processing

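The counts of called ABC genes are given with the share of all genes called. That for TAK-981 against vehicle was 3 (12.2%) and moved to 5 with no filter on low counts (12.7%). It moved to 12 with its 4 libraries alone (32.5%) and to 10 without both venetoclax libraries (30.2%). For venetoclax against vehicle, 11 (20.8%) became 1 with the 4 libraries alone (1.63%). For the combination against venetoclax, 15 (39.6%) became 8 with its 4 libraries alone (20.3%). For the combination against TAK-981, 4 (8.8%) became 8 with no filter (10.3%). It became 15 with the 4 libraries alone (29.8%) and 13 without both venetoclax libraries (28.8%). The interaction count of 0 (0.0311%) became 4 with no filter (6.06%) and 4 with DESeq2 (2.3%). With 1 library left out, the share of all genes called did not always move together with the counts. Leaving out 1 library at a time gave 0 to 10 for TAK-981, 1 to 16 for venetoclax, 5 to 18 for the combination against vehicle, 9 to 22 against venetoclax, 0 to 13 against TAK-981 and 0 to 10 for the interaction. No named value changed direction under a call. With 1 library left out, 1337 values of single genes kept their side of the threshold, 69 passed it newly and 130 no longer passed. Under the other settings these were 1256, 67 and 21. Of the genes reported above as called in no comparison, ABCA3, ABCB6, ABCC5 and ABCD3 were each called under some of those settings. A fit with 1 library in a group assumes that this library varies like those of the other groups.

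The replicate numbers were not taken to pair the libraries, since the labels give them no meaning. Same-numbered libraries of different groups deviated together with correlations from -0.041 to 0.375. The highest were 0.375 for vehicle and combination and 0.343 for TAK-981 and venetoclax, so some shared deviation is possible. With the replicate block, 3, 11, 16, 16, 5 and 0 ABC genes were called in the 6 comparisons, in the order above. The changes were ABCD2 in the combination against venetoclax (-1.505, adjusted p = 0.0371) and ABCA7 in the combination against TAK-981 (0.68, adjusted p = 0.0491), both newly called by edgeR. Depth limits the genes under 1 CPM, where a group held as few as 5 counts.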
